A study of Mus musculus with 93 samples.

Results

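The 10 nuclear receptor genes described here regulate metabolism in hepatocytes, and they were measured across 7 mouse strains and 2 diets, as their mRNA in whole liver. They are the 10 symbols of a list, each matched to 1 row of a table of 53465 genes. All 10 passed the filter on low counts, which left 19110 genes tested. The list was named by function and not by a rule on measured values, though with earlier results of these data known. It holds Nr1h4 (FXR), Nr0b2 (SHP), Nr5a2 (LRH-1), Nr1i2 (PXR), Nr1i3 (CAR), Nr1h3 (LXRα), Rxra (RXRα), Ppara (PPARα), Ppard (PPARδ), and Esrra (ERRα). Liver RNA was sequenced from 93 male mice of the inbred strains A/J, C57BL/6J, 129S1/SvImJ, DBA/2J, CAST/EiJ, PWK/PhJ, and WSB/EiJ. All mice carried their strain's own genome with no engineered allele given in the labels, and all were kept at thermoneutrality (30 °C) from 6 wk of age. From 7 wk of age they ate either a Western diet (WD; 40% of energy from fat, 17% from protein, and 43% from carbohydrate) or a control diet (CD; 10%, 17%, and 73%). The diet lasted 17 wk, to an age of 24 wk, and the 14 groups of strain and diet held 5 to 8 mice each.

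Nuclear receptors are transcription factors that are switched by small lipophilic molecules and bind DNA near the genes they regulate. FXR senses bile acids, PXR and CAR sense drugs and other foreign or endogenous lipophilic compounds, LXRα senses oxysterols, and the PPARs sense fatty acids. RXRα is the partner with which FXR, PXR, CAR, LXRα, and the PPARs bind DNA as heterodimers. SHP has no DNA-binding domain and represses other receptors, among them LRH-1, which binds DNA as a monomer and supports bile acid synthesis. ERRα has no known natural hormone and drives genes of mitochondrial respiration together with the coactivator PGC-1α.

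Many of these receptors recognise the hexamer AGGTCA, alone or in pairs. To show where these letters stand in the receptors' own promoters, both strands of the 250 bases before each annotated start were searched in RefSeq promoter sequences (GRCm38.p6). All 10 genes matched the table by symbol, with 13 start sites, and 3 of the 13 windows held the hexamer, in Nr5a2, Rxra, and Nr1h4. Over all 32851 windows of the same length the share was 14%. These 3 windows, the only ones of the 13 with the hexamer, are shown, and a relation of the hexamer to the diet changes was not tested. The capitals mark AGGTCA or its complement TGACCT, and each window is written 5′ to 3′ along the gene's own strand and overlaps no annotated exon.
Nr5a2, chr1:136960449-136960698, minus strand: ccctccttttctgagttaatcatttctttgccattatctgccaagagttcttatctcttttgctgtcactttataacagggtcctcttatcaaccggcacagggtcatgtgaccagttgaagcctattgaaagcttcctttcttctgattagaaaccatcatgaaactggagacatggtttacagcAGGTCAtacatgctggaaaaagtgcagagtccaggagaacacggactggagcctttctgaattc
Rxra, chr2:27709042-27709291, plus strand, second start site: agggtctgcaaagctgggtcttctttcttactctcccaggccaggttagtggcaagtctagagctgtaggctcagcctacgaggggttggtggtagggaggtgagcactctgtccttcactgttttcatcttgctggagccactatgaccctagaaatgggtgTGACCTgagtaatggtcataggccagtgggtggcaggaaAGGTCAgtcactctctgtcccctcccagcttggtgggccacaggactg
Nr1h4, chr10:89506659-89506908, minus strand: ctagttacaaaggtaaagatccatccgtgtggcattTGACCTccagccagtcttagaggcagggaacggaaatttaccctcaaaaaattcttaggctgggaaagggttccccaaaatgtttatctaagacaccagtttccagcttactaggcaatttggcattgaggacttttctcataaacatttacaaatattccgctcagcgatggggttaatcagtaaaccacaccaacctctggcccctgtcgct
The first base of the hexamer lies 64 bases before the start of Nr5a2 shown, while its other start site had no match, and 214 bases before that of Nr1h4. In Rxra the sense copy begins 48 bases and the antisense copy 87 bases before the second start site, while the first start site had no match. A match describes letters only, and binding was not measured.

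Reads on genes ranged from 40020424 to 49894856 per mouse, and RNA integrity numbers from 7 to 9.7. Reads of all strains were mapped to the C57BL/6J genome, and the share left unmapped was 1.66–3.87% in C57BL/6J and 8.93–14.8% in CAST/EiJ, with the 5 other strains between 1.93% and 10.3%. The unmapped share also moved with diet, from 3.504 ± 0.71% on CD to 7.88 ± 1.18% on WD in PWK/PhJ, from 10.8 ± 1.66% to 13.3 ± 1.01% in CAST/EiJ, from 4.52 ± 1.61% to 7.42 ± 2.52% in WSB/EiJ, and from 4.55 ± 0.66% to 5.57 ± 0.67% in 129S1/SvImJ, while it went from 6.45 ± 0.62% to 4.77 ± 0.67% in DBA/2J. Its part in the diet changes was not tested. The hepatocyte markers Alb, Ttr, Apoa1, and 7 others were read in every group, and their summed level ranged from 71292 to 221126 CPM (a gene's reads scaled to a library of fixed size). Over the 12373 genes with a mean log2 CPM above 0, C57BL/6J-CD mouse 2 lay farthest from its group, with a median absolute deviation of 0.26 on the log2 scale, followed by C57BL/6J-WD mouse 3 at 0.19. The median over the 93 mice was 0.087. Both had the highest sums of 6 cholangiocyte markers in their groups, 437.3 CPM against 43.4–199.0 in the 7 other CD mice and 407.9 against 48.1–215.6 in the 7 other WD mice, and of 10 stellate cell markers (1008.1 against 344.4–513.2 and 1178.1 against 346.6–778.2). Their sums of endothelial markers were the lowest of their groups (252.7 against 351.3–398.5 and 258.9 against 328.4–378.8). Their hepatocyte marker sums lay within the range of the other mice. Receptor changes and pair correlations that rest on these 2 mice are given with and without them. Calls of partner genes and cell type markers in C57BL/6J are given only with both mice included. Next in distance came CAST/EiJ-CD mice 4 and 5, at 0.18 and 0.17, and the CAST/EiJ diet changes were not recomputed without them. CAST/EiJ-CD mouse 5 had the highest value of its group for Nr1i2, Nr5a2, and Ppara.

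Receptor mRNA differed widely in level. On the scale of CPM, scaled by TMM factors, per kilobase of merged exons, Rxra was the highest of the 10, at 87.8 as a mean of the 14 group means, and Nr1h4 followed at 68.3. Nr1h3 had 34.5, Nr1i2 28.0, Ppara 23.9, Nr0b2 21.3, and Nr5a2 12.7 CPM per kb. Esrra (5.86), Nr1i3 (5.21), and Ppard (1.32) were the lowest. Of the 49 nuclear receptor genes of the mouse, 42 passed the filter. Among them Rxra ranked 2 and Nr1h4 ranked 3 behind Hnf4a, the receptor that maintains hepatocyte identity, which had 126.7 CPM per kb, and Ppard ranked 31.

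**Figure D1:**
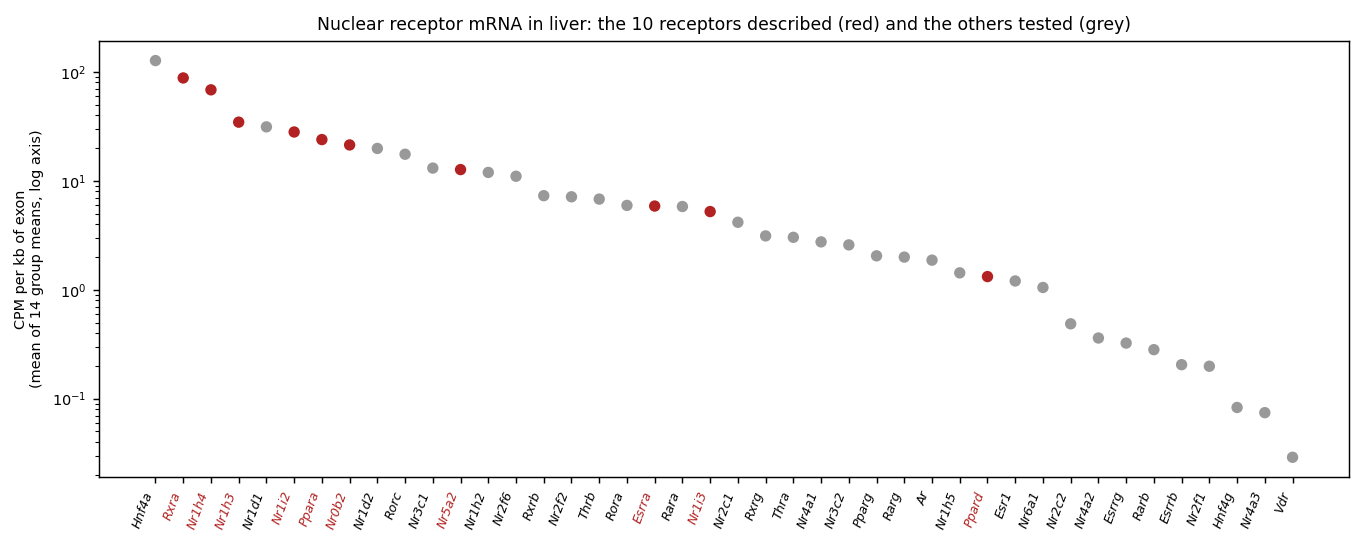
Level of each of the 42 nuclear receptor genes tested, as CPM per kilobase of merged exons on a log axis, averaged over the 14 group means. The 10 receptors described (red) run from Rxra at 87.8 to Ppard at 1.32 CPM per kb.

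All 10 receptors differed between strains on CD (limma's F test, adjusted p < 0.05), but so did 93.7% of all genes tested, so the count says little about these receptors. Strain accounted for 71.8% of the variance of log2 CPM in Nr1i3, 65.8% in Esrra, 56.6% in Nr1h4, and 55.8% in Nr1h3, where the median over all genes was 54.8%. It accounted for 26.9–37.2% in the other 6 receptors. Diet, entered after strain, took 13.4% in Nr5a2 and 8.46% in Rxra but no more than 2.59% in the other 8, against a median of 2.30%. The spread within groups also set the receptors apart. Nr1h3 was among the least variable genes, with a residual SD of 0.084 on the log2 scale and only 1.79% of genes below it. Nr0b2 was among the most variable, with a residual SD of 0.67 and 92.8% of genes below it.

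Nr1i3, the xenobiotic sensor CAR, showed the widest range of strains. On CD its level was 44.4 ± 15.0 CPM (SD, n = 7) in 129S1/SvImJ, 31.6 ± 8.06 (n = 6) in WSB/EiJ, 24.3 ± 2.99 (n = 7) in CAST/EiJ, 17.7 ± 2.64 (n = 5) in A/J, 17.0 ± 5.69 (n = 8) in C57BL/6J, 13.0 ± 5.13 (n = 6) in DBA/2J, and 10.3 ± 2.11 (n = 6) in PWK/PhJ. The highest strain mean was 4.31 times the lowest on CD and 5.75 times on WD, and the order of the 7 strains was the same on both diets. On CD a gap larger than the spread of the neighbouring groups lay only between A/J and CAST/EiJ. Single 129S1/SvImJ-CD mice ranged from 24.8 to 70.3 CPM with a median of 45.9, and PWK/PhJ-CD mice from 7.78 to 12.9 with a median of 10.0, so these groups did not overlap. Of the 4414 exonic bases of Nr1i3, 3304 are shared with Tomm40l on the opposite strand, and the sources used here do not state whether the counting separated strands. Tomm40l, which encodes a mitochondrial outer membrane protein, had 14.7 ± 4.78 CPM in 129S1/SvImJ-CD and 5.67 ± 1.34 in PWK/PhJ-CD, and its group means correlated with those of Nr1i3 at r = 0.96 over 14 groups. The part of read sharing or of read mapping in the strain order was not tested.

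The other receptors varied less between strains. On CD, Nr0b2 ranged from 13.2 ± 5.75 CPM in CAST/EiJ to 37.1 ± 14.4 in PWK/PhJ, a ratio of 2.82, but no neighbours in that order differed beyond their spread. Ppara ran from 50.4 ± 11.1 in PWK/PhJ to 125.5 ± 40.1 in CAST/EiJ, a ratio of 2.49, again with no neighbours apart. Nr1h4 fell into a lower set of A/J, C57BL/6J, and DBA/2J (126.5 to 132.3 CPM) and a higher set of WSB/EiJ, PWK/PhJ, 129S1/SvImJ, and CAST/EiJ (176.6 to 202.5), and the gap between DBA/2J and WSB/EiJ was larger than their spread. Esrra was lowest in C57BL/6J (20.0 ± 4.69) and highest in CAST/EiJ (35.9 ± 6.86), and Ppard was lowest in PWK/PhJ (7.36 ± 0.79) and highest in C57BL/6J (13.1 ± 7.63). The last mean includes C57BL/6J-CD mouse 2 at 31.1 CPM, where the next mouse had 14.6. Nr1h3, Nr5a2, and Rxra had ratios of highest to lowest strain of 1.23, 1.34, and 1.33. Nr1i2 had a ratio of 2.47, set by CAST/EiJ, which is described with the diet effects.

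**Figure D2:**
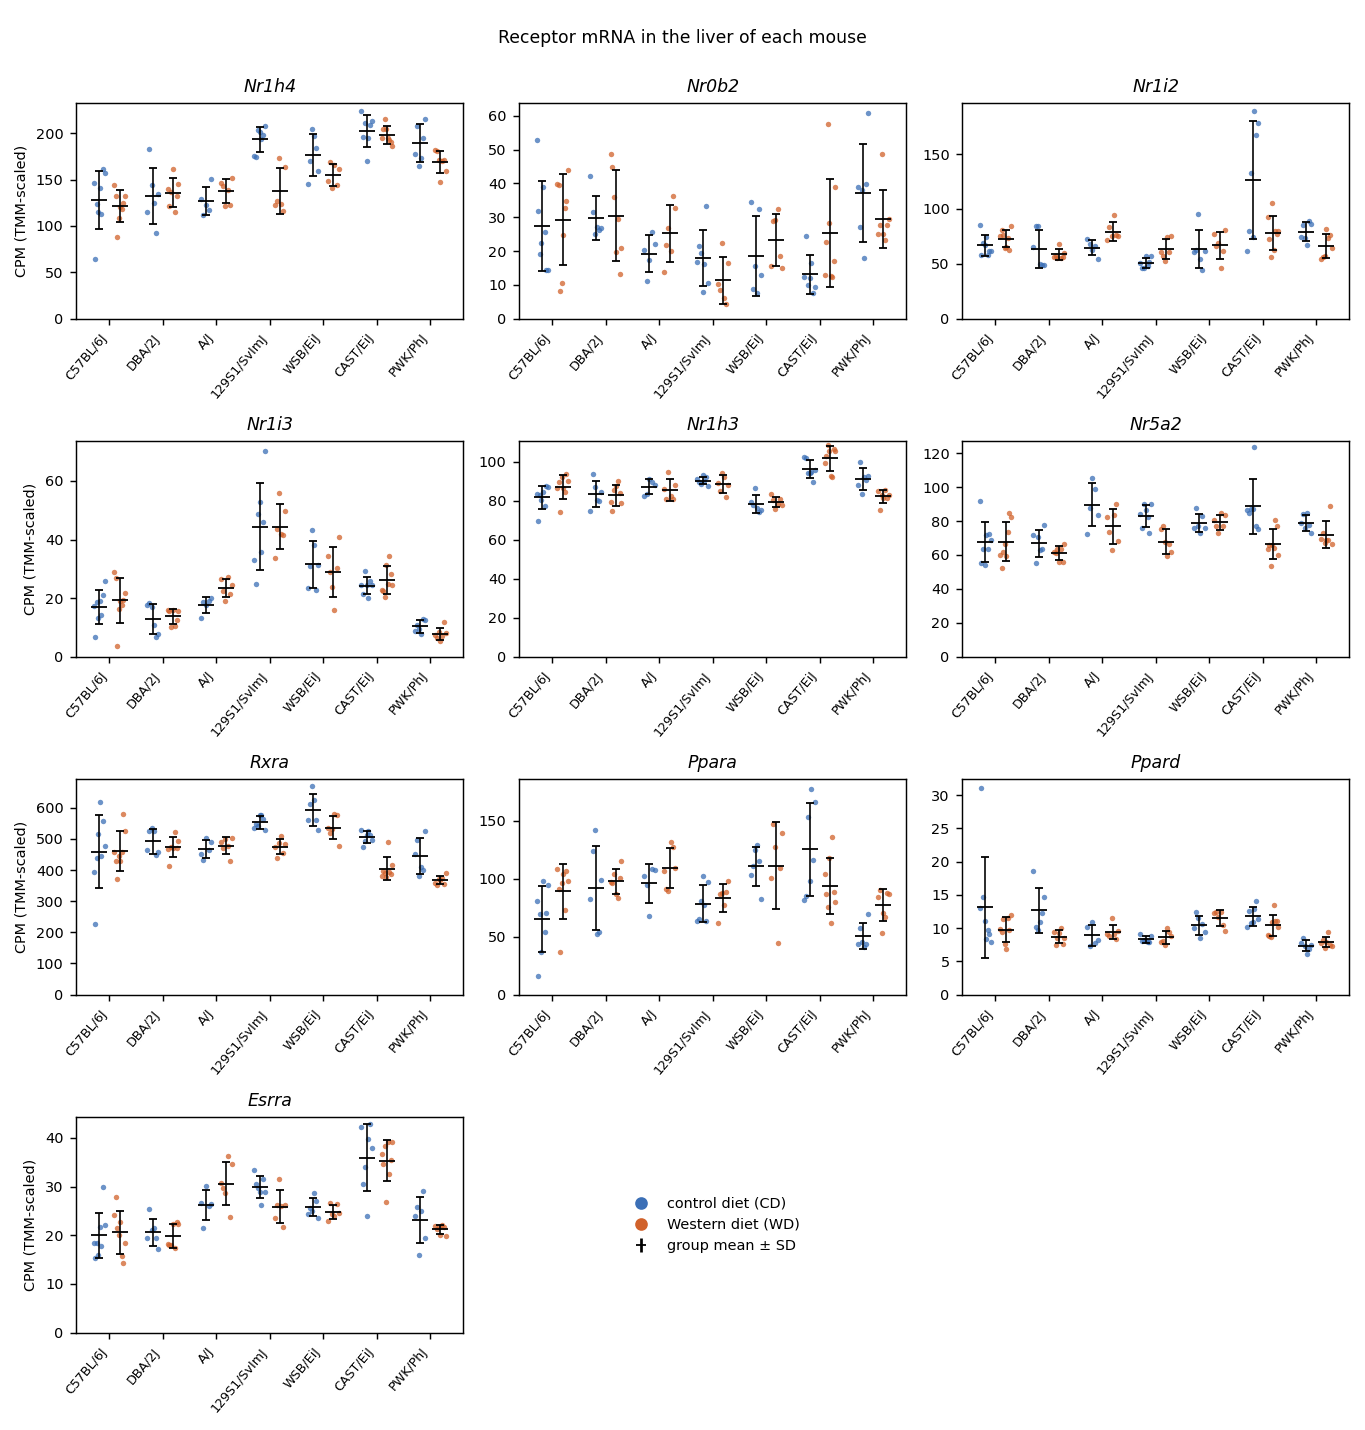
CPM of each receptor in each mouse by strain, with CD in blue and WD in orange, and bars for the group mean ± SD. Nr1i3 is highest in 129S1/SvImJ at 44.4 CPM on either diet, and Nr1i2 on CD is highest and most spread in CAST/EiJ, at 61.3 to 189.3 CPM.

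The WD shifted few receptors, and by little. Of 70 combinations of receptor and strain, 10 passed the test of WD against CD (limma-voom, adjusted p < 0.05), 8 lower and 2 higher on WD. The median absolute log2 fold change was 0.14 over these 70 and 0.20 over all genes and strains. Among all genes, 3.97% to 14.5% fell and 4.39% to 15.1% rose, depending on the strain. The number of falls alone therefore says little about these receptors. In 129S1/SvImJ 2 receptors fell and none rose, where 13.6% of all genes fell and 14.5% rose. In CAST/EiJ 3 fell and none rose, against 9.73% and 9.77% of genes. In PWK/PhJ 2 fell and 1 rose, against 14.5% and 15.1%. In C57BL/6J 1 rose and none fell, against 14.3% rising and 11.9% falling, and in DBA/2J 1 fell and none rose, against 7.77% falling and 10.2% rising. None was called in A/J, where 4.39% of genes rose and 4.64% fell, or in WSB/EiJ, where 4.97% rose and 3.97% fell. Averaged over the 7 strains, 3 of 10 fell (Nr5a2, Rxra, and Nr1h4) and none rose, against 24.5% and 27.1% of genes. Within single strains, the members' count lay farthest from the share of all genes for the falls in CAST/EiJ. In bulk liver, a lower value could be fewer of the cells that express the gene or less of its RNA per cell. These cannot be told apart.

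**Figure D3:**
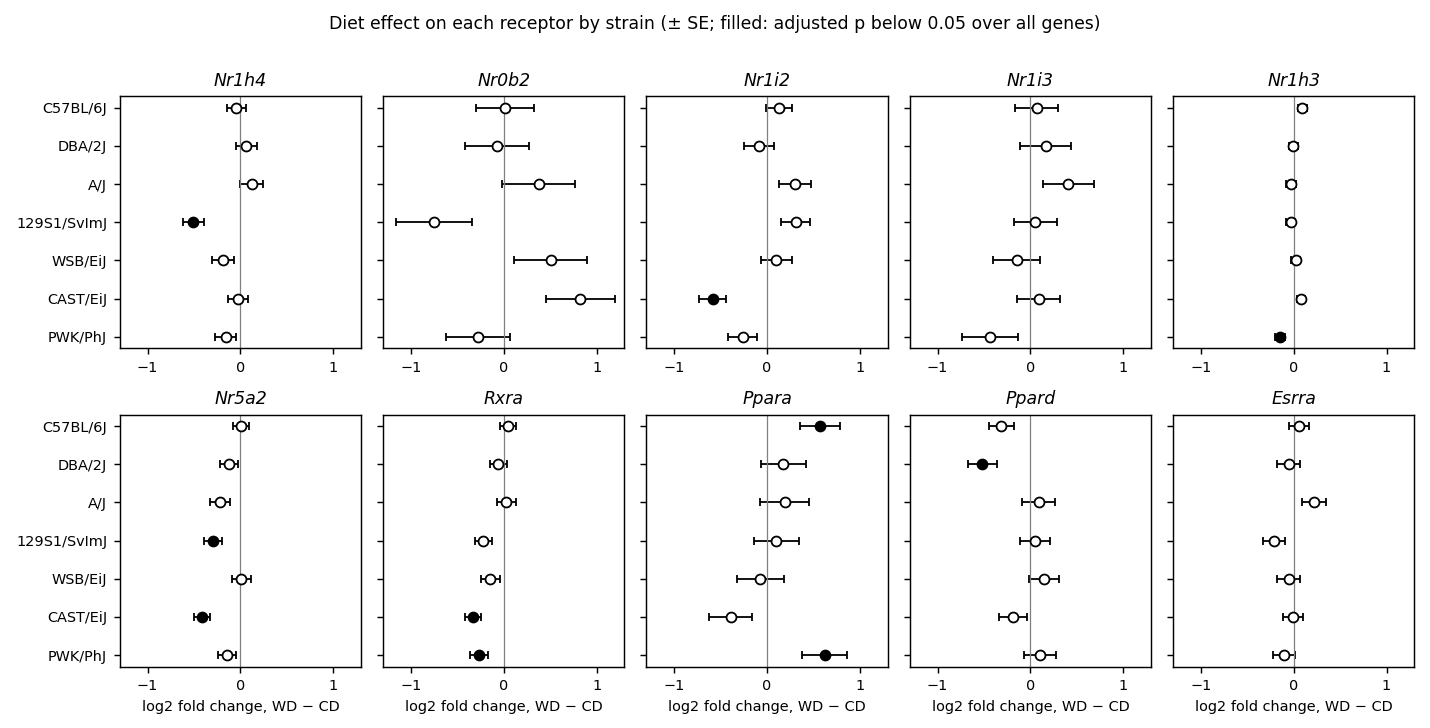
log2 fold change of WD against CD for each receptor in each strain, with bars for the SE from limma-voom. Filled points are the 10 combinations with an adjusted p below 0.05, of which 8 lie below 0 and 2, both of Ppara, lie above it.

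Of the genes of the bile acid circuit, Nr1h4 fell most clearly in 129S1/SvImJ. There its level was 173.8 to 207.6 CPM on CD with a median of 198.3, and 116.3 to 173.7 on WD with a median of 125.0, so that no WD mouse reached the lowest CD mouse, though only narrowly. The log2 fold change was -0.51 ± 0.11 (SE, n = 7 CD and 6 WD), a 0.70-fold level (adjusted p = 0.0004). It was -0.40 and -0.59 within the 2 cohorts of this strain. In the other 6 strains the change ran from -0.18 in WSB/EiJ to 0.12 in A/J with no call, and the fall in 129S1/SvImJ lay apart from the mean of the 6 others by -0.47 ± 0.12 (adjusted p = 0.012). The mean over 7 strains was -0.10 ± 0.04 (adjusted p = 0.035), with 5 strains below 0, and this call was lost under 3 of 8 alternatives, with adjusted p up to 0.093, and without A/J-CD mouse 5 (-0.09, adjusted p = 0.062).

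Nr5a2, which supports the transcription of bile acid synthesis genes, was lower on WD in 5 of 7 strains, and 2 of these changes were called. The mean over strains was -0.17 ± 0.04 (adjusted p = 5.7e-05), a 0.89-fold level, and it was called under all 8 alternatives. In CAST/EiJ the CD mice had 75.3 to 123.6 CPM with a median of 86.8, and the WD mice 53.4 to 80.4 with a median of 65.0. The groups overlapped at their edges, the log2 fold change was -0.41 ± 0.09 (adjusted p = 0.00033), and it was negative in each of the 3 cohorts (-0.52, -0.40, and -0.31). The first of these cohorts had a single CD mouse. The highest CD mouse stood apart from the other 6. In 129S1/SvImJ Nr5a2 went from a median of 83.9 CPM on CD (72.9 to 90.2) to 67.1 on WD (59.3 to 76.98), with overlap. The change was -0.29 ± 0.10 (adjusted p = 0.015), which upper-quartile normalization moved to an adjusted p of 0.053. C57BL/6J and WSB/EiJ had changes of 0.0021 and 0.01.

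Nr0b2, the corepressor that FXR induces, was not called in any strain. Its largest changes were 0.82 ± 0.37 in CAST/EiJ (adjusted p = 0.11) and -0.75 ± 0.41 in 129S1/SvImJ (adjusted p = 0.16). In CAST/EiJ the CD mice ranged from 7.52 to 24.5 CPM with a median of 11.9 and the WD mice from 12.4 to 57.5 with a median of 19.9, so the groups overlapped widely. In 129S1/SvImJ the ranges were 7.78 to 33.4 on CD and 4.27 to 22.3 on WD. edgeR and DESeq2 called the CAST/EiJ change, with an adjusted p of 0.032 at the lowest.

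Nr1i2, the xenobiotic sensor PXR, fell in CAST/EiJ. The 7 CAST/EiJ-CD mice had 61.3 to 189.3 CPM with a median of 133.1, and the 8 WD mice had 56.5 to 105.7 with a median of 78.2. The CD mice at 133.1, 167.8, 178.3, and 189.3 CPM lay above every WD mouse, and the other 3 (61.3, 74.3, and 80.0 CPM) lay within the WD range. The log2 fold change was -0.59 ± 0.15 (adjusted p = 0.0019), and by cohort it was 0.24, -0.34, and -0.86, where the first of these had a single CD mouse. The separate fit of this strain gave an adjusted p of 0.10. This change lay apart from the mean of the 6 others by -0.67 ± 0.16 (adjusted p = 0.0021), and the other strains had changes from -0.26 in PWK/PhJ to 0.31 in 129S1/SvImJ. On CD, CAST/EiJ stood at 126.3 ± 54.0 CPM where the other 6 strains had means of 51.0 to 79.3, and on WD all 7 strains lay between 58.5 and 79.5.

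Nr1i3 was not called in any strain. The largest changes were -0.44 ± 0.30 in PWK/PhJ and 0.41 ± 0.27 in A/J. In C57BL/6J the change was 0.07 ± 0.23 with all mice. It was 0.41 (adjusted p = 0.093) without C57BL/6J-WD mouse 3, which had 3.51 CPM, and -0.11 (adjusted p = 0.76) without C57BL/6J-CD mouse 2. The 5 A/J-CD mice had 13.3, 17.5, 18.7, 19.0, and 20.1 CPM, and the 6 WD mice ranged from 19.0 to 27.3 with a median of 23.5. Of the WD mice 5 lay above every CD mouse, yet the adjusted p was 0.39 in the fit over all groups and 0.026 in a fit of A/J alone.

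Nr1h3, the oxysterol sensor LXRα, moved within a narrow band. It fell in PWK/PhJ from a median of 91.4 CPM on CD (83.2 to 99.8) to 83.1 on WD (74.96 to 85.6), with a small overlap. The change was only -0.15 ± 0.05 (adjusted p = 0.015), or 0.90-fold, and it was -0.15 in each of both cohorts. Upper-quartile normalization gave an adjusted p of 0.052. Against the mean of the other 6 strains the difference was -0.17 ± 0.05 (adjusted p = 0.018). Changes in the other strains ran from -0.03 to 0.09, and the last, in C57BL/6J, was 0.13 (adjusted p = 0.013) without C57BL/6J-WD mouse 3.

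Rxra, the shared partner of the heterodimers, fell in CAST/EiJ and PWK/PhJ. CAST/EiJ mice had 473.9 to 529.3 CPM on CD with a median of 512.0 and 378.8 to 490.8 on WD with a median of 391.2. Only the highest WD mouse reached into the CD range, the next having 417.0 CPM. The change was -0.33 ± 0.09 (adjusted p = 0.0032), and it was -0.44, -0.17, and -0.36 by cohort, where the first had a single CD mouse. In PWK/PhJ the ranges were 380.5 to 526.5 on CD and 352.9 to 389.0 on WD, with 6 of the 7 WD mice below every CD mouse, and the change was -0.27 ± 0.09 (adjusted p = 0.022, or 0.076 without a filter on low counts). In 129S1/SvImJ the CD mice (528.9 to 577.7) and WD mice (438.8 to 508.5) did not overlap, while the change of -0.22 ± 0.09 was not called (adjusted p = 0.072). It was called with cohort within strain as a covariate (adjusted p = 0.036), in the fit of this strain alone (0.0016), and with sample quality weights (0.00071), which made 3 falls in 129S1/SvImJ. The mean over the 7 strains was -0.13 ± 0.04 (adjusted p = 0.00087), called under all 8 alternatives, with 5 strains below 0.

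Ppara, the fatty acid sensor that drives β-oxidation and ketogenesis, was the receptor that rose. In PWK/PhJ it went from a median of 45.0 CPM on CD (41.2 to 69.8) to 84.6 on WD (53.6 to 90.7), with overlap. The change was 0.62 ± 0.24 (adjusted p = 0.044), 1.54-fold, and it was 0.61 and 0.63 by cohort. Without the filter on low counts the adjusted p was 0.13. In C57BL/6J Ppara was called at 0.57 ± 0.22 (adjusted p = 0.043), from a median of 70.3 CPM on CD (16.2 to 98.2) to 97.1 on WD (37.1 to 108.1). This call was lost under 6 of 9 alternatives. The lowest CD value was that of C57BL/6J-CD mouse 2, without which the change was 0.32 (adjusted p = 0.23), and the lowest WD value was that of C57BL/6J-WD mouse 3, without which it was 0.75 (adjusted p = 0.0055). CAST/EiJ had a change in the other direction, -0.39 ± 0.23, which was not called. The mean over strains was 0.17 ± 0.09 (adjusted p = 0.11).

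Ppard, a fatty acid sensor of wider tissue distribution, fell in DBA/2J. The 6 CD mice had 9.71 to 18.5 CPM with a median of 11.5, the 7 WD mice had 7.43 to 10.0 with a median of 8.56, and the groups overlapped only at their edge. The change was -0.52 ± 0.16 (adjusted p = 0.012), 0.70-fold, with -0.51 and -0.52 by cohort, and all 9 alternatives kept the call. It lay apart from the mean of the 6 others by -0.50 ± 0.17 (adjusted p = 0.052). In C57BL/6J the change was -0.31 ± 0.13 (adjusted p = 0.074) with all mice and -0.09 (adjusted p = 0.56) without C57BL/6J-CD mouse 2. The other strains ran from -0.19 to 0.15.

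Esrra, the driver of mitochondrial genes, was called in no strain. Its changes ran from -0.21 ± 0.12 in 129S1/SvImJ (26.2 to 33.4 CPM on CD and 21.8 to 31.6 on WD) to 0.22 ± 0.13 in A/J, and the mean was -0.02 ± 0.04.

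Whether the diet effect depended on strain was tested by the F test over the 7 effects. It was called for 4 of 10 receptors, near the 37.5% of all genes. These were Nr1i2 (adjusted p = 0.0036), Nr1h4 (0.023), Nr1h3 (0.035), and Nr5a2 (0.044), while Ppard (0.053) and Rxra (0.058) missed the threshold. Ppard was called under 7 of 8 alternatives and Rxra under 4, among them cohort within strain as a covariate (0.019 and 0.0022). The call of Nr5a2 was lost under 3 of 8 alternatives (adjusted p of 0.071 to 0.15) and without C57BL/6J-CD mouse 2 (0.055), and that of Nr1h3 with upper-quartile normalization (0.073). Without C57BL/6J-WD mouse 3, 7 of 10 receptors were called. Taken 1 strain at a time against the mean of the other 6, CAST/EiJ differed in Nr1i2 and Nr5a2, 2 of 10 receptors against 14.5% of genes, and 4 without C57BL/6J-CD mouse 2. Nr5a2 fell further there than elsewhere, by -0.29 ± 0.10 (adjusted p = 0.035). 129S1/SvImJ differed in Nr1h4 alone (6.28% of genes) and PWK/PhJ in Nr1h3 alone (16.3%). In C57BL/6J, DBA/2J, A/J, and WSB/EiJ no receptor differed, where 4.69%, 7.77%, 0.466%, and 0.947% of genes did.

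Markers of liver cell types were counted in each strain, and the background is the share of all genes given with the receptor counts. In 129S1/SvImJ 9 of 13 macrophage and Kupffer cell markers rose and none fell, and their summed level went from 218.8–358.4 CPM on CD to 466.4–647.4 on WD. All 3 neutrophil markers and 4 of 6 T and NK cell markers rose there too. Of 10 stellate cell markers, 4 rose there, 5 in PWK/PhJ, 2 in A/J, and 1 in CAST/EiJ. In C57BL/6J, where Ppara was called higher, 5 stellate and 6 of 13 macrophage markers rose and 5 of 10 hepatocyte markers fell. In DBA/2J, where Ppard fell, 4 of 7 endothelial and 2 of 10 hepatocyte markers fell, against 7.77% of all genes. No macrophage or stellate marker was called there, and no B cell marker was called in any strain. In PWK/PhJ 7 of 13 macrophage markers and 5 of 6 cholangiocyte markers rose, the latter from 64.6–140.4 to 159.0–528.2 CPM summed. In CAST/EiJ 2 of 13 macrophage markers rose, where 9.77% of all genes rose, with sums of 204.3–344.3 on CD and 273.2–429.5 on WD. Hepatocyte markers fell in 5 of 10 cases in 129S1/SvImJ, 5 of 10 in PWK/PhJ, and 3 of 10 in CAST/EiJ, with median log2 changes of -0.22, -0.47, and -0.25. In A/J and WSB/EiJ, where no receptor was called, 4 and 3 of 10 hepatocyte markers fell, with medians of -0.36 and 0.01, and 2 of 13 macrophage markers rose in WSB/EiJ. The summed level of the hepatocyte markers still fell in WSB/EiJ, from 149714–184143 CPM on CD to 71292–117863 on WD. These sums also fell without overlap in C57BL/6J, A/J, CAST/EiJ, and PWK/PhJ, and with overlap in DBA/2J and 129S1/SvImJ. No marker of these lists was at 0 in every mouse of a group. Their part in the receptor changes was not tested.

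Genes known to be regulated by these receptors were counted in lists. In the mean over strains, 27.1% of all genes rose and 24.5% fell, the background for the counts in that mean. For counts in a single strain, the background is that strain's share of all genes, given with the receptor counts. The sterol list of LXRα (13 genes) had between 4 called higher in DBA/2J and A/J and 9 in C57BL/6J, with a median change of 0.28 in the mean over strains where all genes had 0.01. Abcg5, the hepatobiliary sterol exporter, rose in 6 strains, from 76.9 ± 19.6 to 187.6 ± 40.8 CPM in C57BL/6J (log2 1.30 ± 0.12, adjusted p = 1.6e-13) and by 1.73 ± 0.14 in WSB/EiJ. Abcg1, a cholesterol exporter, also rose in 6 strains, and Scd1, the stearoyl-CoA desaturase, in 5. Srebf1, the master regulator of fatty acid synthesis, rose in 5 strains but fell in 129S1/SvImJ by 0.69 (adjusted p = 0.019). Over the same contrasts Nr1h3 itself was called only in PWK/PhJ, downward.

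**Figure D4:**
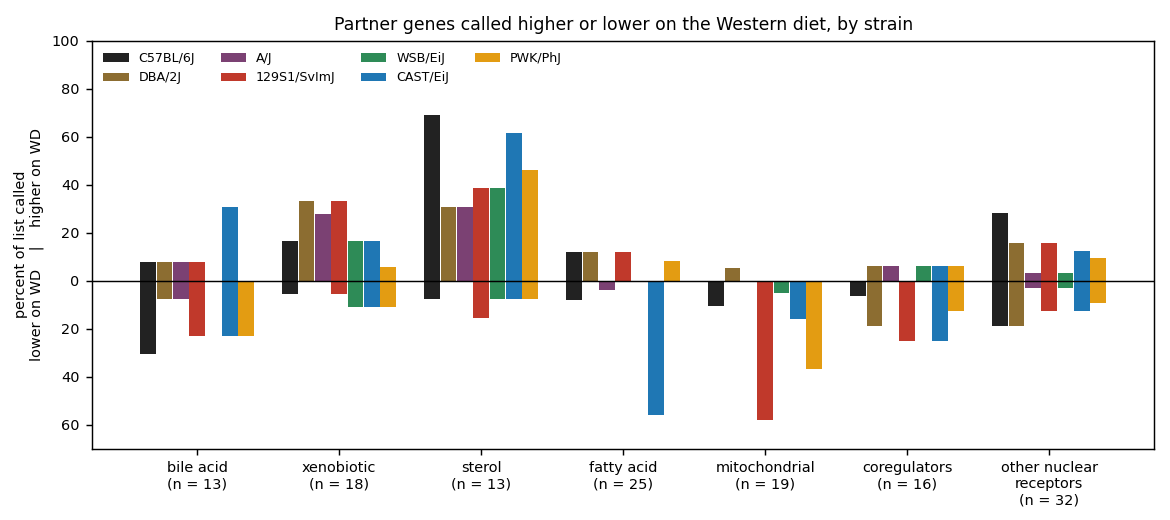
Percent of the genes of each partner list called higher (up) or lower (down) on WD, by strain, with the number of genes tested under each list. The sterol list is mostly higher, with 9 of 13 genes in C57BL/6J, while 14 of 25 fatty acid genes are lower in CAST/EiJ and 11 of 19 mitochondrial genes in 129S1/SvImJ.

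Among 18 xenobiotic genes of PXR and CAR, 10 rose and 2 fell in the mean over strains, with a median of 0.36. Cyp3a11, the main hepatic drug-metabolising P450 of PXR, rose in 5 strains, by 3.32 ± 0.23 in CAST/EiJ (224.5 ± 92.9 to 2210 ± 686 CPM, adjusted p = 1.7e-20) and 2.60 ± 0.25 in 129S1/SvImJ. In CAST/EiJ this rise stood beside the fall of Nr1i2. Cyp3a11 was not called in C57BL/6J (0.18) or PWK/PhJ (-0.10), where its level on CD was 3319 ± 1216 and 4622 ± 1216 CPM. In A/J, with 2371 ± 648 CPM on CD, it rose by 1.11 ± 0.29 (adjusted p = 0.0079). The part of the CD level in these changes was not tested. Gsta2, a glutathione transferase, and Abcc3, a basolateral conjugate exporter, each rose in 5 strains, and Cyp2b10, the classical CAR target, in 3. Cyp2b10 was low, with no group mean above 2.64 CPM and 1.65 ± 3.87 CPM in C57BL/6J-CD.

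The 13 bile acid genes tested gave 2 higher and 5 lower in the mean over strains, where 27.1% and 24.5% of all genes were. Cyp7a1, the rate-limiting enzyme of bile acid synthesis, rose in DBA/2J, A/J, and CAST/EiJ, by 2.50 ± 0.56, 1.87 ± 0.62, and 2.78 ± 0.52. Slc10a1, the hepatocyte bile acid importer, fell in PWK/PhJ, C57BL/6J, and 129S1/SvImJ, and Klb, the coreceptor for intestinal FGF15, fell in CAST/EiJ, PWK/PhJ, and 129S1/SvImJ. Fgfr4, the receptor for that signal, fell in 3 strains and rose in CAST/EiJ (0.23 ± 0.09, adjusted p = 0.049). Abcb11, the bile salt export pump and an FXR target, fell in C57BL/6J by 0.63 and in DBA/2J by 0.52 but rose in CAST/EiJ by 0.34. Cyp8b1, the sterol 12α-hydroxylase, was called only in CAST/EiJ, at -0.77 ± 0.27 (adjusted p = 0.031).

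The 25 fatty acid genes of the PPARs split by strain. In CAST/EiJ 14 fell and none rose, against 9.73% and 9.77% of genes, with a median of -0.52. Ppara had its lowest change in this strain, though it was not called (-0.39 ± 0.23, adjusted p = 0.24). By cohort that change was 0.12, -0.41, and -0.46, where the first had a single CD mouse. The CAST/EiJ-CD mice spread widely, with 81.3 to 178.0 CPM in Ppara, 13.0 ± 12.2 in Fgf21, 64.4 ± 56.2 in Cidec, and 258.7 ± 131.6 in Angptl4. In the other 6 strains at most 3 rose and at most 2 fell. Vnn1, a pantetheinase, rose in DBA/2J, PWK/PhJ, C57BL/6J, and 129S1/SvImJ, by 1.52 to 1.90, and Acaa1b, a peroxisomal thiolase, in 3 strains. Fgf21, the hepatokine induced by PPARα, fell in C57BL/6J by 2.08, in A/J by 1.95, and in CAST/EiJ by 2.16. Cidec, a lipid droplet protein, rose in C57BL/6J by 3.17 and in PWK/PhJ by 2.22 and fell in CAST/EiJ by 1.76. Angptl4, the lipoprotein lipase inhibitor, was called only in CAST/EiJ, at -0.85 ± 0.31 (adjusted p = 0.041), and Cyp4a14, a fatty acid hydroxylase of wide spread between mice, in no strain.

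Of 19 mitochondrial genes linked to ERRα, none fell in DBA/2J or A/J. In WSB/EiJ 1 fell and in C57BL/6J 2, where 3.97% and 11.9% of all genes fell. In CAST/EiJ 3 fell, in PWK/PhJ 7, and in 129S1/SvImJ 11, where 9.73%, 14.5%, and 13.6% of all genes fell. Sdhd, a subunit of succinate dehydrogenase, fell in 4 strains, by 0.39 in 129S1/SvImJ, and Idh3a, of the TCA cycle, fell in C57BL/6J by 0.40 and in 129S1/SvImJ by 0.58. Fh1 (fumarate hydratase) and Ogdh (2-oxoglutarate dehydrogenase) fell in 129S1/SvImJ and CAST/EiJ. Esrra was not called in these strains.

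Of 16 coregulators, 7 fell and 2 rose in the mean over strains, where 24.5% and 27.1% of all genes did. The acetyltransferase Crebbp fell in 4 strains, the corepressor subunit Gps2 fell in 3, and the corepressor subunit Tbl1x rose in 4. Ppargc1a, which encodes PGC-1α, fell only in CAST/EiJ, by 1.11 (19.6 ± 12.2 to 8.17 ± 1.97 CPM, adjusted p = 9.1e-05). Among 32 other nuclear receptors tested, 11 rose and 7 fell in the mean, where 27.1% and 24.5% of all genes did. Nr2c1 (TR2) fell in all 7 strains, by 0.18 in 129S1/SvImJ to 0.45 in CAST/EiJ, and Nr1h2 (LXRβ) fell in 4. Pparg, the adipogenic PPAR, rose in 5 strains, most in PWK/PhJ (3.46 ± 0.63, from 0.38 ± 0.08 to 5.18 ± 3.70 CPM). In WSB/EiJ and CAST/EiJ it was not called, at 1.01 ± 0.35 and 0.38 ± 0.11 CPM on WD. Nr4a3, an immediate early receptor, rose in 3 strains and fell in CAST/EiJ, with no group mean above 1.40 CPM.

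Across the 93 mice, with the mean of each strain and diet group subtracted, 11 receptor and partner pairs were compared on log2 CPM, with p-values two-sided, from 100000 permutations of mice within groups and adjusted over the 11. Esrra and Idh3a were the closest pair, at Pearson r = 0.49 (permutation p = 3e-05, adjusted p = 0.00033) and Spearman rho = 0.46 (permutation p = 1e-05, the smallest the permutations can give, adjusted p = 0.00011). Without the 2 mice farthest from the median of Esrra, r was 0.43. Within strain, diet, and cohort it was 0.48 (adjusted permutation p = 0.017), the only pair called on that scale. Nr1i2 and Cyp3a11 correlated at r = 0.44 (permutation p = 0.0003, adjusted p = 0.00165) and rho = 0.43 (permutation p = 8e-05, adjusted p = 0.00044), with r = 0.43 without 2 mice and 0.37 within cohorts (adjusted p = 0.068). Ppara and Cyp4a14 had r = 0.36 (permutation p = 0.00112, adjusted p = 0.00411), rho = 0.30 (permutation p = 0.0118, adjusted p = 0.0434), 0.37 without 2 mice, and 0.25 within cohorts (adjusted p = 0.105). Nr0b2 and Cyp7a1 went in opposite directions, at r = -0.27 (permutation p = 0.00898, adjusted p = 0.0244), rho = -0.24 (permutation p = 0.0233, adjusted p = 0.0641), -0.28 without 2 mice, and -0.22 within cohorts (adjusted p = 0.139).

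Another 2 pairs rested on the C57BL/6J mice that stood apart. Rxra and Ppara had r = 0.40 (permutation p = 0.0245, adjusted p = 0.0449) but rho = 0.08 (permutation p = 0.494, adjusted p = 0.604), and r = 0.08 without C57BL/6J-CD mouse 2 and C57BL/6J-WD mouse 3. Nr1i3 and Cyp2b10 had r = -0.32 (permutation p = 0.0111, adjusted p = 0.0244) but rho = -0.13 (permutation p = 0.22, adjusted p = 0.404), and r = -0.06 without these mice. Ppard and Angptl4 had r = -0.41 (permutation p = 0.0321, adjusted p = 0.0505), which was -0.14 without them. No call was made for Nr1h4 with Nr0b2 (0.13) or Abcb11 (-0.03), Nr5a2 with Cyp8b1 (0.16), or Nr1h3 with Abcg5 (0.09). Without both C57BL/6J mice these were 0.12, -0.23 (permutation p = 0.0367, adjusted p = 0.0807), 0.07, and -0.07. Points of 1 cohort, as the labels number cohorts, are not independent of each other.

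**Figure D5:**
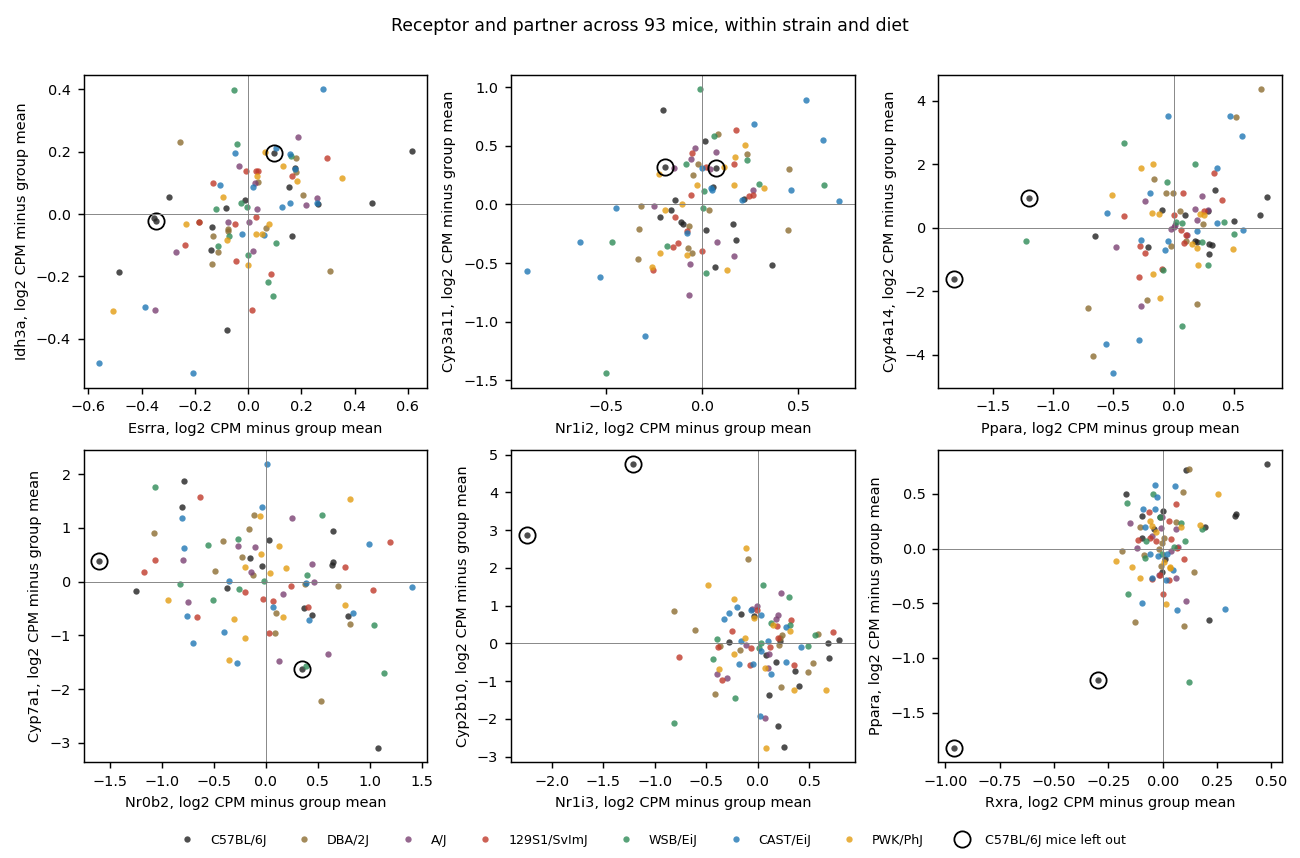
Receptor and partner in each of 93 mice as log2 CPM minus the mean of the mouse's strain and diet group, for 6 pairs, coloured by strain. The ringed points are C57BL/6J-CD mouse 2 and C57BL/6J-WD mouse 3, without which r fell from 0.40 to 0.08 for Rxra and Ppara and from -0.32 to -0.06 for Nr1i3 and Cyp2b10.

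The genes most like each receptor over the 14 group means of log2 CPM were listed as a description, since the points share strain, mapping, and diet. For Ppara they were Nr1d2 (r = 0.92), the circadian repressor REV-ERBβ, and Crebrf (0.89). Esrra was closest to Homer2 and 9430091E24Rik (each 0.93), Rxra to Gtpbp1 (0.92) and Gm20219 (0.90), and Nr1i3 to the overlapping Tomm40l (0.96) and to Dpys (0.94), a pyrimidine-degrading enzyme. Nr1h4 was closest to Gm5841 (0.94) and Atp5b (0.91), a subunit of ATP synthase, Nr1h3 to Gm6580 (0.92) and Gm49519 (0.90), and Nr5a2 to 4933431G14Rik (0.89) and Naa50 (0.86). Ppard was closest to Rad51c (0.88) and C730034F03Rik (0.86), Nr1i2 to Cavin2 (0.86) and Cmya5 (0.85), and Nr0b2 to Tbck (0.83) and Ppbp (0.82).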

How the data were processed

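Bulk RNA-seq libraries of liver were made from 93 separate mice, so p-values measure the spread between mice. The authors deposited raw counts of reads per gene. The submitters' processing notes name STAR 2.7.1a and the builds GRCm38 and mm10, while the annotation release and the strand setting are not given in the sources used here. The 4 summary lines that name no gene were removed from the deposited counts. Gene symbols and shared exons came from GENCODE M21, and 53360 of 53465 genes had a symbol. Promoters came from RefSeq. Genes were kept by filterByExpr of edgeR 4.0.16 (minimum count 10), scaled by TMM factors (0.81 to 1.27), and fitted by limma-voom (limma 3.58.1, R 4.3.3) with 1 mean for each of 14 groups. P-values were adjusted by Benjamini-Hochberg over 19110 genes within a contrast, with a threshold of 0.05. Correlations used log2 CPM with a prior count of 2 (Python 3.11.15, numpy 2.4.6, scipy 1.17.1). Alternatives were edgeR's quasi-likelihood test, DESeq2 1.42.0, upper-quartile scaling, other filters, cohort or RNA integrity as covariates, separate fits by strain, sample quality weights, and leaving out mice. The fits were tested on simulated data. Replicate numbers were given in accession order. Named genes were the 10 receptors, the 4 genes of each partner list called in most strains in 1 direction, the partners of the 11 pairs, and the 2 genes most like each receptor. Hnf4a was named after its value was seen. The receptors and lists were chosen with earlier results of these data known.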

Additional observations from a re-analysis of the deposited data

Results flagged for a closer look

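Of 140 combinations of receptor and group, 10 held a mouse whose gap to the next was large for the range of its group by Dixon's criterion, and chance gives about 1 in 20. The highest mouse stood apart for Nr0b2 in DBA/2J-CD (42.34 CPM) and PWK/PhJ-WD (48.56), Nr1i2 in DBA/2J-WD (68.51) and WSB/EiJ-CD (95.53), Nr5a2 in CAST/EiJ-CD (123.6) and PWK/PhJ-WD (89.03), Rxra in CAST/EiJ-WD (490.8), and Ppard (31.12) and Esrra (29.93) in C57BL/6J-CD. The lowest mouse stood apart for Nr1h3 in PWK/PhJ-WD (74.96 CPM).

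The diet effect differed between strains by the F test of limma-voom for Nr1i2 (adjusted p = 0.0036), Nr1h4 (0.023), Nr1h3 (0.035), and Nr5a2 (0.044).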

How the results depend on the processing

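Counts of receptors called were recomputed under each alternative, and no direction of a called change turned. The count of receptors higher on WD in C57BL/6J was 1 and became 0 with edgeR, no filter on low counts, RNA integrity as a covariate, separate fits, or sample quality weights, and the count lower there went from 0 to 1 with edgeR, DESeq2, or cohort as a covariate. With edgeR or DESeq2, 1 receptor was called higher in CAST/EiJ. Falls in 129S1/SvImJ went from 2 to 3 with cohort as a covariate, separate fits, or quality weights. Upper-quartile scaling left 1 of 2 falls in 129S1/SvImJ and 1 of 2 in PWK/PhJ. Without a filter, PWK/PhJ had 0 rises and 1 fall, and CAST/EiJ had 1 receptor that differed from the other strains. Separate fits called 2 higher in A/J and 1 in 129S1/SvImJ, and quality weights called 1 higher in 129S1/SvImJ. DBA/2J differed from the other strains in 1 receptor under edgeR, DESeq2, at least 10 counts in every mouse, cohort, RNA integrity, and quality weights. C57BL/6J did so in 1 with cohort, and quality weights gave 1 in A/J and 2 in 129S1/SvImJ. The cause was not tested.

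Leaving out each A/J mouse in turn, or, chosen after seeing the data, C57BL/6J-CD mouse 2 or C57BL/6J-WD mouse 3, gave 0 to 2 rises in C57BL/6J, 0 to 1 receptors that differed from the other strains in DBA/2J (1 without A/J-CD mouse 3 or C57BL/6J-CD mouse 2) and in C57BL/6J, 2 to 4 in CAST/EiJ, and 4 to 7 whose diet effect differed between strains. The falls averaged over strains were 3, and 2 without A/J-CD mouse 5, where that of Nr1h4 was lost. Of 11 correlations, 6 were called with Pearson r, 3 with Spearman rho, and 1 within cohorts. Among the diet changes of single receptors, 683 values kept their side of the threshold under another fit, 14 lost the call, and 13 gained it, and with 1 mouse left out 257 kept it, 2 lost it, and 1 gained it.

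No paired analysis was possible because the labels give no replicate numbers and each mouse had 1 diet. Reads per mouse fell as low as 208 for Nr0b2, 218 for Nr1i3, and 296 for Ppard, which adds counting error to their values. The share of this error in their spread between mice was not tested.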
